A study of Oryza sativa with 6 samples.

Results

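The genes described here are the basic helix-loop-helix (bHLH) transcription factors of rice (Oryza sativa) other than the regulators of the tapetum, the nurse cell layer of the anther. They were chosen by the words helix-loop-helix or bHLH in the deposited gene names and descriptions, and 6 genes were left out by identifier: UDT1, TDR, TIP2 and EAT1 of the tapetum, bHLH001 and bHLH002. The rule gave 170 genes of the 39367 in the deposited table. The rule reads words and identifiers and no measured value, but it was written with earlier results of these data known. RNA-seq libraries were made from panicles of the wild-type cultivar Nipponbare (3 libraries) and of CTB3-cr1 (3 libraries), which the labels call a CTB3 knockdown and the column headings of the table call KO. All panicles had been under a cold treatment abbreviated CS-PT for 1 day, and no uncooled panicle entered, so the values compare genotypes within the cold only. The labels call the 3 samples of a genotype biological replicates, and they do not say whether CTB3-cr1 is 1 line or several.

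bHLH proteins bind DNA as pairs. A basic stretch contacts E-box motifs and the helix-loop-helix stretch holds the pair together. Members that lack the basic stretch form pairs that bind DNA poorly and so hold other members back. In plants the family carries light, jasmonate, brassinosteroid and iron signals and sets cell fates such as the stomatal guard cell, and several members are essential in the anther.

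The words took in genes of more than one kind. The deposited transcription factor column gave the family HLH for 102 of the 170 members and no family for 63. The other 5 carried another family: the TCP genes Os01g0924400 and Os04g0526000, the YABBY gene Os04g0536300 (YABBY 5), and Os03g0293400 and Os09g0514900 with the domain entries A1pp and DUF654. LO9-177, a KxDL protein, is a member because its description names its place in a bHLH complex. Of the members, 11 had no symbol or number in their name and 2 were loci outside the annotation. Conversely, 113 genes of the table carried the family HLH, and 11 of these were not members. Setting aside those of the 11 that were left out by identifier, the most counts that any had over the 6 libraries was 5. Chromosomes 3 and 1 held the most members, with 28 and 27, and chromosome 10 the fewest, with 5. Positions are repeated as deposited, and the sources used here name no genome build for them. Named members are placed below as chromosome, start, end and strand, and no promoter or protein sequence was used.

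Total gene counts per library ranged from 14422565 to 16982031. All 11 floral organ markers had counts, and their summed level was 1396 to 1773 CPM (counts scaled to library size with TMM factors). CTB3 itself was not looked at, since its identifier is unknown here. The summed level of 8 tapetum markers was 1121, 1431 and 1299 CPM in CTB3-cr1 against 2260, 2551 and 1751 in Nipponbare, so every CTB3-cr1 library was lower. Without the most abundant marker, polyketide synthase 1 (Os10g0484800), the sums were 591, 723 and 816 against 1151, 1179 and 799 CPM, and the genotypes overlapped. Of the 8 markers taken singly, 7 were lower in CTB3-cr1 and 1 was higher, with a median log2 fold change of -0.87. In edgeR 5 had an unadjusted p under 0.05 and 0 an adjusted p under 0.05, while the authors' deposited table called 4. The part of the tapetum difference in the values below was not tested. In RNA from whole panicles, fewer cells of a type and less RNA per cell cannot be told apart. The first principal component, with 38.9% of the variance, set off Nipponbare replicate 2, at a score of 80.3 against -54.8 to 17.2. Nipponbare replicate 3 had the highest score on the second component, 67.1.

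Most members passed the filter on low counts used for the test, as did most genes of the deposited table. Of the 170 members 121 passed and 49 did not, while 25636 of all 39367 genes passed. The 49 included 14 with 0 counts in all 6 libraries and 29 with 1 to 49 counts in all. Between 136 and 143 members had a count in a given library. By mean FPKM (a level per transcript length, which allows genes of different length to be compared), 9 members reached 50 or more, 53 lay from 10 to 50, 51 from 1 to 10 and 57 under 1. The median FPKM was 10.1 over the tested members and 9.55 over all 25636 genes tested. The members together made up 3593 ± 86.1 CPM in CTB3-cr1 and 3499 ± 123 CPM in Nipponbare (mean ± SD, n = 3), and the ranges of the genotypes, 3497 to 3663 and 3413 to 3640, overlapped.

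**Figure D1:**
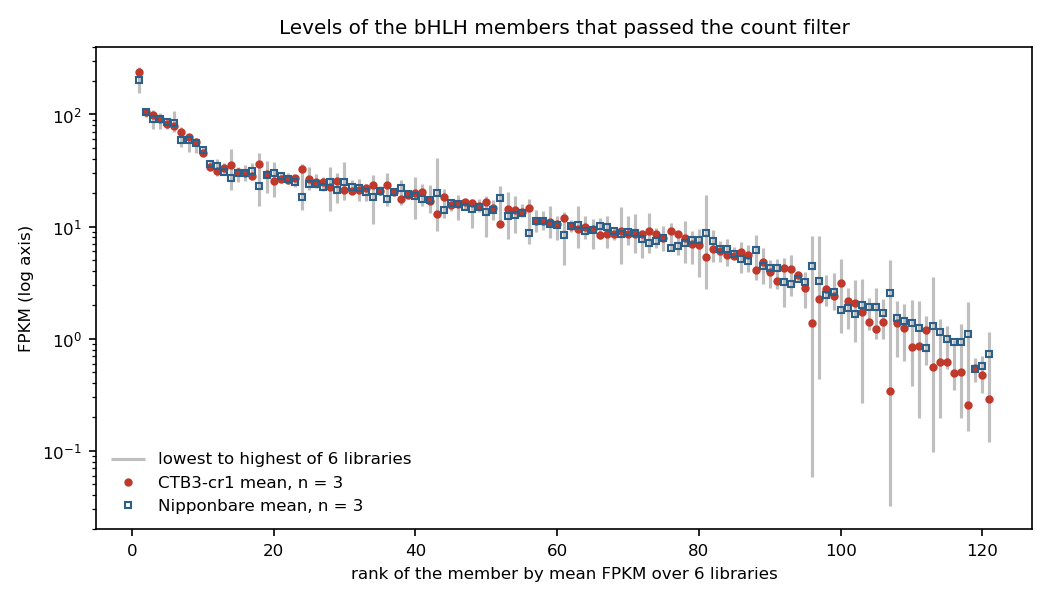
FPKM, on a log axis, of the 121 members that passed the filter, ordered by mean FPKM over the 6 libraries, with the mean of each genotype (n = 3) as a point and the lowest to highest library as a grey bar. The member ranked first, bHLH095, has a mean FPKM of 222, and the bars grow longer toward the right, where members are below an FPKM of 10.

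The most abundant member was bHLH095 (Os06g0613500, chromosome 6, 24522241 to 24527832, minus strand), at a mean FPKM of 222. Its level was 202, 269 and 259 CPM in the CTB3-cr1 libraries and 258, 211 and 157 CPM in the Nipponbare libraries. The genotypes overlapped, and the log2 fold change (CTB3-cr1 minus Nipponbare, as everywhere below) was 0.22 ± 0.21 (estimate ± approximate SE). Next by FPKM were bHLH060, an iron regulator, at 105, ILI5, a small HLH protein of organ growth, at 94.9, bHLH090 at 91.4, bHLH155 at 84.2 and bHLH138 at 81.9. bHLH138 (Os03g0391700), known in rice as an activator of the thermosensitive male sterility gene TMS5, had 227, 179 and 202 CPM in CTB3-cr1 and 188, 180 and 274 CPM in Nipponbare. Its highest value was in Nipponbare and its lowest in CTB3-cr1, the genotypes overlapped, and its log2 fold change was -0.08 ± 0.19. bHLH090 (Os01g0915600) averaged 199 ± 31.8 CPM in CTB3-cr1 and 198 ± 27.3 CPM in Nipponbare (SD, n = 3). bHLH155 (Os06g0724800) averaged 120 ± 11.5 and 124 ± 14.0 CPM. bHLH032 (Os09g0475400), among the 8 highest by CPM but at an FPKM of 25.9, averaged 111 ± 5.62 and 102 ± 12.2 CPM. For each of these 7 members the genotypes overlapped, and the adjusted p in edgeR was at least 0.996.

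No member differed between the genotypes past the threshold. In edgeR's quasi-likelihood test, 0 of 121 members had a Benjamini-Hochberg adjusted p under 0.05, where 0.078% of all genes tested did, and the smallest adjusted p was 0.697. At an unadjusted p under 0.05 there were 7 members, 3 higher and 4 lower in CTB3-cr1, which is 5.79% of those tested against 5.25% of all genes. DESeq2, limma-voom and limma on log2(FPKM + 1) also called 0 of 156, 121 and 113 members. They called 202 of 33504, 23 of 25636 and 22 of 23726 genes. At an unadjusted p under 0.05 there were 9, 5 and 5 of those members, and the shares of all genes at that limit are not given here. In the authors' deposited table, 0 of 152 members with an adjusted p were under 0.05, where 0.621% of its genes were. The authors also used DESeq2, and 202 genes were called there as in the DESeq2 fit above, so it is not a separate check. Genotypes that did not overlap, with every CTB3-cr1 library above every Nipponbare library, were seen for 3 members (5.11% of all genes) and the opposite order for 4 members (5.36% of all genes). These shares, 2.48% and 3.31% of the members, are below those of all genes.

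The fold changes were centred on 0. Log2 fold changes were above 0 for 60 of the 121 and below 0 for 61, and the median was -0.0024, against -0.0026 over all genes. The 64 tested members with the family HLH had a median of -0.03 and the other 57 a median of 0.03. For 81 members the 95% interval lay within a 2-fold change in either direction. For the other 40 it reached beyond, so a change of that size was not bounded for them at this depth and number of libraries. An interval within 2-fold does not mean that a 2-fold change would have been called. In counts simulated from all genes of these libraries, edgeR called 21% of 2-fold and 78% of 4-fold changes at an adjusted p under 0.05. The median within-genotype SD of log2(CPM + 0.5) was 0.321 for the members and 0.249 over all genes tested. Estimates beyond 2-fold were found for 5 members (4.13%, against 4.56% of all genes): Rc, bHLH097, bHLH023, bHLH113 and bHLH004. All 5 were lower in CTB3-cr1, had at most 230 counts over the 3 Nipponbare libraries, and had their highest value in Nipponbare replicate 2 or 3. Leaving out 1 library brought 3 of them inside 2-fold: bHLH023 to -0.89 and bHLH113 to -0.84 without Nipponbare replicate 2, bHLH113 to -0.94 and bHLH004 to -0.89 without CTB3-cr1 replicate 3. Without Nipponbare replicate 3, bHLH004 turned to 1.63.

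**Figure D2:**
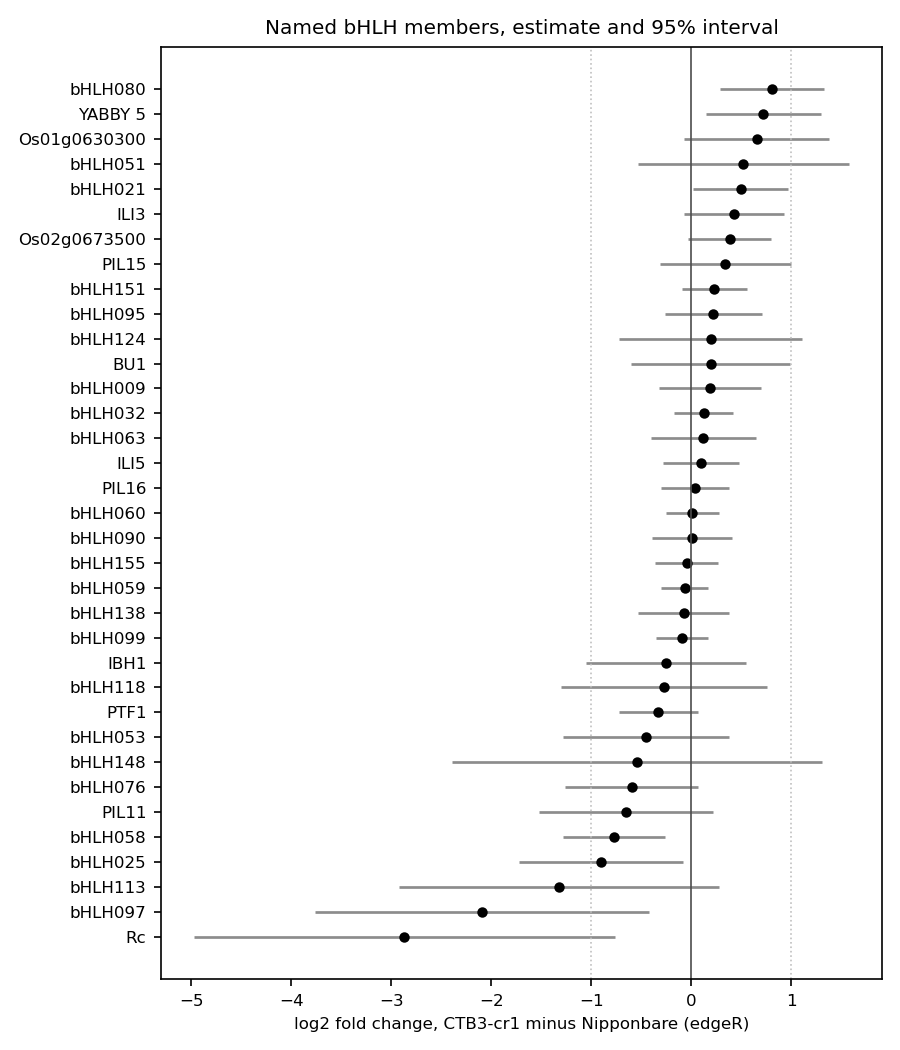
Log2 fold change (edgeR, CTB3-cr1 minus Nipponbare) of 35 named members as points, with the 95% interval as a line. Dotted lines mark a 2-fold change, and the intervals are short for abundant members such as bHLH060 (0.01) and long for weakly expressed ones such as Rc (-2.87).

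The most abundant iron regulators, bHLH060 and bHLH059, were nearly even across the 6 libraries. In rice, bHLH058, bHLH059 and bHLH060 are known to act early in the iron deficiency response, bHLH063 (IRO3) to restrain it, and bHLH056 and bHLH156 to drive iron uptake in roots. Of these 6 members 4 were tested, 0 passed the threshold, and their log2 fold changes ranged from -0.77 to 0.12 with a median of -0.03. bHLH060 (Os08g0138500, chromosome 8, 2148965 to 2151526, minus strand) had 108, 121 and 116 CPM in CTB3-cr1 and 121, 117 and 105 CPM in Nipponbare. bHLH059 (Os02g0116600) had 45.0, 46.0 and 47.2 CPM against 47.9, 51.4 and 45.3 CPM. All 6 libraries were close together for both genes, with 95% intervals of the log2 fold change from -0.26 to 0.27 and from -0.30 to 0.17. bHLH063 (Os03g0379300) averaged 4.28 ± 0.483 CPM in CTB3-cr1 and 3.94 ± 0.226 CPM in Nipponbare.

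bHLH058 (Os05g0455400, chromosome 5, 22371227 to 22373519, plus strand) was the iron gene with the lowest p. It had 9.93, 9.12 and 9.88 CPM in CTB3-cr1 and 15.9, 21.1 and 12.3 CPM in Nipponbare. The CTB3-cr1 libraries lay close together and all below Nipponbare. Its log2 fold change was -0.77 ± 0.22 with a 95% interval from -1.28 to -0.26, and the unadjusted p was 0.00873 in edgeR's quasi-likelihood test. The adjusted p of 0.714 did not pass, and the authors' deposited table gave 0.184. bHLH056 had 5 counts, all in Nipponbare replicate 3, and bHLH156 had 2 counts, both in CTB3-cr1 replicate 1.

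Of 6 genes of iron chelation and transport that the iron bHLH proteins are known to control in roots, 2 were tested and 0 passed. NAAT1 (Os02g0306401), an aminotransferase of phytosiderophore synthesis, had 3, 5 and 4 counts in CTB3-cr1 and 19, 35 and 15 in Nipponbare. The genotypes did not overlap, the log2 fold change was -2.60 ± 0.55, and the adjusted p was 0.450 in edgeR and 0.0642 in the authors' deposited table. NAS2 (Os03g0307200), which makes nicotianamine, had a log2 fold change of 0.67 ± 0.52. The transporter YSL15 had 1 count in all and TOM1 had 0.

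The jasmonate members were led by bHLH009, a MYC2-type activator that the repressor JAZ proteins bind. bHLH009 (Os10g0575000, chromosome 10, 22857127 to 22859748, plus strand) had 10.4, 18.1 and 16.4 CPM in CTB3-cr1 and 13.7, 12.8 and 12.9 CPM in Nipponbare. The CTB3-cr1 libraries spread on both sides of the Nipponbare ones, and the log2 fold change was 0.19 ± 0.22. A gene on the opposite strand over nearly the same stretch, Os10g0575100, had 0 counts, and the sources used here do not say whether counting used the strand. bHLH148 (Os03g0741100), known for jasmonate signalling in drought, had 12, 33 and 4 counts against 10, 36 and 21. Replicate 2 was highest in both genotypes, and the log2 fold change of -0.54 ± 0.79 had an interval from -2.39 to 1.31.

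The other 3 jasmonate members did not pass the filter. bHLH006 had 8, 10 and 1 counts in CTB3-cr1 and 1, 0 and 12 in Nipponbare, and bHLH008 had 0 throughout. bHLH010 (Os01g0705700), whose name gives it both as MYC2-like and as an inducer of CBF expression, had 10, 10 and 7 counts in CTB3-cr1 and 4, 3 and 4 counts in Nipponbare. Every CTB3-cr1 library was higher, at 0.559 ± 0.131 CPM against 0.236 ± 0.0187 CPM, but its total of 38 counts was below the filter. Tested without a filter, its log2 fold change was 1.22 with an adjusted p of 0.927 in edgeR, and the authors' deposited table gave 1.24 with an adjusted p of 1.000. It was 1 of 4 members whose genotypes did not overlap among 35 below the filter with a count, where 8.11% of all such genes did not overlap.

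The JAZ repressors that hold such activators back belong to the TIFY genes. Of 15 genes named TIFY, 10 were tested and 0 passed in edgeR, with 3 positive and 7 negative log2 fold changes and a median of -0.20. TIFY 11C (Os03g0180900) averaged 4.39 ± 0.312 CPM in CTB3-cr1 and 16.7 ± 10.8 CPM in Nipponbare, without overlap, and Nipponbare replicate 2 was highest at 29.1 CPM. Its log2 fold change was -1.93 ± 0.43, with an unadjusted p of 0.00253 in edgeR. The adjusted p was 0.492 in edgeR but 0.00211 in the authors' deposited table. Without Nipponbare replicate 2 the log2 fold change was -1.26, with an unadjusted p of 0.000828 and an adjusted p of 0.340 in edgeR. TIFY 11A (Os03g0180800), the neighbour of TIFY 11C, averaged 29.9 ± 7.20 against 68.6 ± 42.1 CPM, with overlap and an adjusted p of 0.806 in edgeR. Its log2 fold change of -1.19 became -0.58 without Nipponbare replicate 2, where it reached 116 CPM. The most abundant of the 15, TIFY 10B (Os07g0615200), was at 219 ± 33.7 and 220 ± 33.3 CPM.

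Phytochrome-interacting members, which in Arabidopsis act against light signalling and are removed by active phytochrome, numbered 7, of which 6 were tested and 0 passed. Their log2 fold changes ran from -0.65 to 0.34 with a median of -0.10, 2 positive and 4 negative. bHLH099 (Os07g0182200), the most abundant at a mean FPKM of 27.4, had 27.4, 30.3 and 31.1 CPM in CTB3-cr1 and 33.5, 29.8 and 31.5 CPM in Nipponbare. The overlap was wide and the 95% interval of its log2 fold change, -0.35 to 0.17, was narrow. PIL16 averaged 24.6 ± 3.85 and 24.0 ± 1.76 CPM. PIL15, known in rice as a brake on grain size, had 18.0, 33.6 and 17.6 CPM in CTB3-cr1 and 14.8, 18.6 and 21.3 CPM in Nipponbare, so that its estimate of 0.34 rested on CTB3-cr1 replicate 2: without that library it was -0.03. PIL11 (Os12g0610200) had 1.49, 1.12 and 1.34 CPM against 1.34, 2.17 and 2.72 CPM, a log2 fold change of -0.65 ± 0.37. The phytochromes A, B and C had log2 fold changes of -0.03, -0.04 and 0.19, and the DELLA repressor SLR1, which also binds such factors, had -0.23 ± 0.13. Every CTB3-cr1 library was higher for phytochrome C and lower for SLR1, each with an adjusted p of 0.996 in edgeR. For phytochromes A and B the genotypes overlapped.

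The brassinosteroid and organ size list held ILI5, BU1 and IBH1, while the related ILI3 is described further on with the members of lowest p. ILI5 and BU1 are small HLH proteins that promote cell elongation and lamina bending, and IBH1 opposes them by binding. ILI5 (Os02g0747900, chromosome 2, 31423943 to 31425239, minus strand) had 110, 95.5 and 115 CPM in CTB3-cr1 and 118, 100 and 80.9 CPM in Nipponbare. IBH1 (Os04g0660100) had 6.69, 12.5 and 9.23 CPM against 15.1, 11.9 and 6.85 CPM. BU1 (Os06g0226500) had 2.99, 1.80 and 1.99 CPM against 2.42, 1.59 and 1.89 CPM. The genotypes overlapped for all 3, with log2 fold changes of 0.10, -0.25 and 0.19. By FPKM the growth-promoting ILI5, at 94.9, was far above BU1 at 2.61 and IBH1 at 1.55. The order of BU1 and IBH1 depended on the deposited gene length, which was 6620 for IBH1, 798 for BU1 and 1071 for ILI5. By mean CPM, ILI5 was at 103, IBH1 at 10.4 and BU1 at 2.11.

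ILI5 is also known as BUL1 and acts with LO9-177 and BC1. BC1 (bHLH081, Os09g0510500) averaged 27.1 ± 4.61 CPM in CTB3-cr1 and 28.1 ± 5.64 CPM in Nipponbare, a log2 fold change of -0.05 ± 0.19. LO9-177 (Os03g0640400) had 35.2, 20.9 and 19.8 CPM against 18.1, 15.1 and 25.3 CPM, a log2 fold change of 0.37 ± 0.28. By FPKM the level of ILI5 was 94.9, of LO9-177 31.3 and of BC1 21.5. Further ILI genes outside the wording of the rule, ILI6 (Os03g0171300) and ILI1 (Os04g0641700), had log2 fold changes of -1.08 ± 0.50 and -0.59 ± 0.31 with adjusted p-values of 0.958 and 0.978 in edgeR. The brassinosteroid receptor gene D61 had -0.16 and the transcription factor gene BZR1 0.15.

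The stomatal, branching and root hair members were weakly expressed, and none of them or of the phosphate genes passed the threshold. Of the 4 stomatal members, bHLH053 (SPEECHLESS 2) and bHLH051 (similar to FAMA) were tested, with log2 fold changes of -0.45 ± 0.35 and 0.52 ± 0.45. In Arabidopsis, SPEECHLESS starts the stomatal lineage and FAMA ends it in guard cells. The branching genes bHLH118 and bHLH124, similar to LAX PANICLE, had log2 fold changes of -0.27 ± 0.44 and 0.19 ± 0.39. LAX1 itself (Os01g0831000), needed for the first steps of axillary meristems in the panicle, had 5 counts over the 6 libraries. PTF1 (Os06g0193400), a factor of phosphate starvation, had 35.1, 48.0 and 36.3 CPM in CTB3-cr1 and 43.7, 58.6 and 47.8 CPM in Nipponbare. Its genotypes overlapped, and the log2 fold change was -0.33 ± 0.17 with an adjusted p of 0.976 in edgeR. All 8 root hair members were below the filter, at mean FPKM of at most 0.512, and 3 of them had 0 counts.

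The member higher in CTB3-cr1 with the lowest p was bHLH080 (Os08g0536800, chromosome 8, 26841066 to 26843300, minus strand), listed in RefSeq as BCL1. It had 43.6, 48.3 and 38.1 CPM in CTB3-cr1 and 33.5, 19.0 and 21.6 CPM in Nipponbare. All CTB3-cr1 libraries were above all Nipponbare libraries, with Nipponbare replicate 1 nearest to them. The log2 fold change was 0.81 ± 0.22 (95% interval 0.29 to 1.33, unadjusted p = 0.00742), and it stayed between 0.65 and 1.09 when each library was left out in turn. The adjusted p was 0.697 in edgeR and 0.130 in the authors' deposited table, so the difference did not pass in either.

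YABBY 5 (Os04g0536300, chromosome 4, 26797695 to 26800253, minus strand), which keeps the spikelet meristem in rice, followed. It had 14.7, 19.5 and 23.1 CPM in CTB3-cr1 and 15.0, 10.6 and 9.28 CPM in Nipponbare. The lowest CTB3-cr1 library lay just under the highest Nipponbare library, and the log2 fold change was 0.72 ± 0.24 (adjusted p = 0.806, edgeR). bHLH021 (Os12g0632600, chromosome 12, 27088697 to 27091800, plus strand) had 11.6, 7.94 and 9.99 CPM against 7.70, 6.73 and 6.50 CPM. Its genotypes did not overlap, by a narrow margin, and the log2 fold change was 0.49 ± 0.20 (adjusted p = 0.930, edgeR).

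The next 3 members on the higher side all overlapped between genotypes. Os01g0630300, with a bHLH domain and no name, averaged 37.2 ± 9.16 CPM in CTB3-cr1 and 23.6 ± 9.76 CPM in Nipponbare. Os02g0673500, also unnamed, averaged 50.8 ± 9.81 and 39.0 ± 5.77 CPM. ILI3 (Os03g0171700), a further small HLH protein of lamina bending, averaged 19.3 ± 5.01 and 14.3 ± 1.62 CPM. Their log2 fold changes were 0.66 ± 0.31, 0.38 ± 0.18 and 0.43 ± 0.21. bHLH086 (Os06g0275600) was the third tested member whose CTB3-cr1 libraries were all higher, at 51.8, 56.6 and 51.0 CPM against 45.4, 50.4 and 49.4 CPM, but its log2 fold change was 0.13 ± 0.10.

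On the lower side, Rc (Os07g0211500, chromosome 7, 6062889 to 6069304, plus strand) had the largest estimate of the 121 tested members. Rc makes the pericarp of red rice brown or red through proanthocyanidins, and Nipponbare, a white rice, carries a loss-of-function allele. It had 1, 9 and 25 counts in CTB3-cr1 and 41, 141 and 48 counts in Nipponbare, or 0.0649, 0.558 and 1.46 CPM against 2.61, 10.2 and 2.84 CPM. Every CTB3-cr1 library was lower, the CTB3-cr1 libraries differed widely among themselves, and Nipponbare replicate 2 was far above the rest. The log2 fold change was -2.87 ± 0.90 (95% interval -4.97 to -0.76), and the adjusted p was 0.768 in edgeR and 0.0752 in the authors' deposited table, the smallest there for any member. Without Nipponbare replicate 2 the log2 fold change was -1.94 with an unadjusted p of 0.0599, and without CTB3-cr1 replicate 3 it was -4.00 with an unadjusted p of 0.00803. The other 2 pigment members were below the filter. PURPLE LEAF (Os04g0557500) had 0, 0 and 2 counts in CTB3-cr1 and 2, 5 and 5 in Nipponbare, and bHLH015 (Os04g0557200) had 6, 1 and 0 against 4, 4 and 2, highest in a CTB3-cr1 library.

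bHLH097 (Os02g0564700, chromosome 2, 21436299 to 21440664, minus strand) had 10, 5 and 11 counts in CTB3-cr1 and 11, 62 and 30 counts in Nipponbare. In CPM the genotypes did not overlap, but the lowest Nipponbare library, at 0.700 CPM, was next to the highest CTB3-cr1 library at 0.649 CPM. The log2 fold change of -2.09 ± 0.71 became -1.20, with an unadjusted p of 0.0902, without Nipponbare replicate 2. bHLH025 (Os01g0196300, chromosome 1, 5201862 to 5203996, plus strand), the Diterpenoid Phytoalexin Factor that switches on antimicrobial diterpenoid genes, had 1.04, 0.620 and 0.993 CPM against 1.59, 1.67 and 1.71 CPM. The Nipponbare libraries lay close together and above all CTB3-cr1 libraries, and the log2 fold change was -0.90 ± 0.35 (adjusted p = 0.902, edgeR). bHLH076 and bHLH113, with overlapping genotypes, had log2 fold changes of -0.60 ± 0.28 and -1.33 ± 0.68. Leaving out each library in turn gave -0.81 to -0.32 for bHLH076 and -2.31 to -0.84 for bHLH113, each nearest to 0 without Nipponbare replicate 2.

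**Figure D3:**
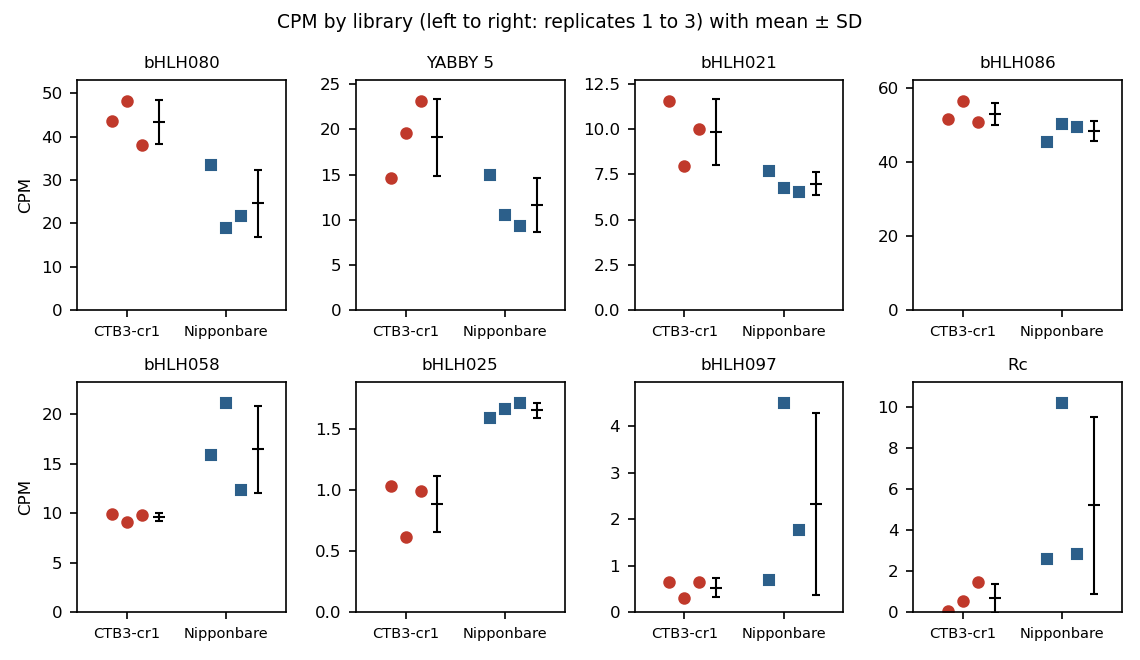
CPM in each library of the 7 members with an unadjusted p under 0.05 and of bHLH086, with CTB3-cr1 as circles, Nipponbare as squares, replicates 1 to 3 from left to right, and the mean ± SD (n = 3) beside them. For Rc and bHLH097 the Nipponbare bar is long because replicate 2 reached 10.2 and 4.49 CPM, while for bHLH058 the 3 CTB3-cr1 values are within 9.12 to 9.93 CPM.

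Several members stood out in 1 library. For 2 of them, Rc and bHLH097, the genotypes did not overlap either. With a rule set after the values were seen (highest library at least 2-fold above the next and at least 20 counts in it), 8 of 125 members stood out, 6.4% against 3.75% of all genes that reached 20 counts in a library. Nipponbare replicate 2 held 4 of them and Nipponbare replicate 3 the other 4, which is 3.2% of the members for each, against 2.23% and 0.95% of all genes. The other 4 libraries held 0 members.

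The members of Nipponbare replicate 2 were bHLH036, Rc, bHLH023 and bHLH097. bHLH036 (Os05g0163900) had 53 counts there and 5, 0, 0, 0 and 2 in the other libraries. bHLH023 (Os10g0104300) had 114 counts there, 1 in CTB3-cr1 replicate 3 and 27 to 49 in the rest. The summed level of 19 genes for chlorophyll-binding proteins was also highest in this library, 4913 CPM against 2424 to 2974 CPM in the others, and the part of green tissue in these values was not tested.

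The members of Nipponbare replicate 3 were bHLH004, bHLH007, bHLH085 and bHLH167. bHLH085 (Os09g0474100) had 86.1 CPM there, 40.7 CPM in CTB3-cr1 replicate 1 and 19.2 to 20.8 CPM in the remaining 4. bHLH007 (Os04g0300600) had 290 counts there and 35 to 113 elsewhere. bHLH004 (Os10g0544200) had 89 counts there and 2 to 21 elsewhere, and bHLH167 (Os09g0519100) had 49 there and 1 to 10 elsewhere.

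CTB3-cr1 replicate 1 came second in Nipponbare replicate 3's members bHLH004, bHLH085 and bHLH167. The same pair of libraries led for the remaining stomatal members. bHLH055 (Os05g0597000) had 40, 0 and 6 counts in CTB3-cr1 and 1, 2 and 50 in Nipponbare. bHLH054 (Os06g0526100) had 24, 0 and 3 counts in CTB3-cr1 and 0, 2 and 42 in Nipponbare. bHLH003 (Rac Immunity 1, Os03g0135700), a factor of rice immunity, had 6.17, 1.36 and 2.63 CPM in CTB3-cr1 and 1.78, 0.652 and 12.2 CPM in Nipponbare. The highest and the next highest library belonged to different genotypes in each of these 3 genes, so the genotypes overlapped.

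**Figure D4:**
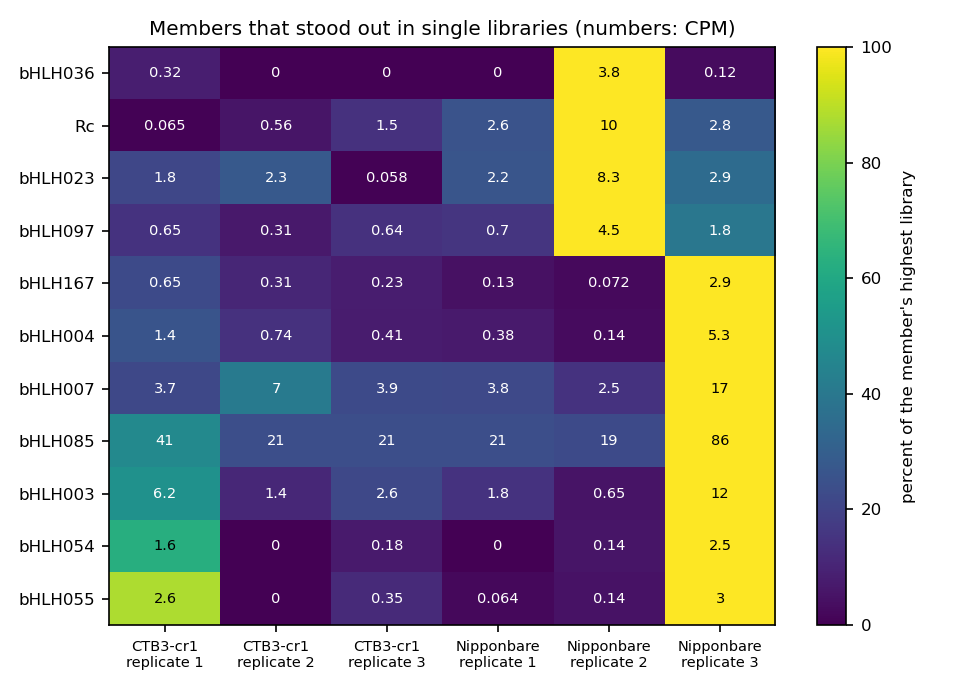
CPM (printed in each cell) and share of the member's highest library (colour, percent) for the 8 members that stood out in 1 library and for bHLH003, bHLH054 and bHLH055. The upper 4 members peak in Nipponbare replicate 2 and the lower 7 in Nipponbare replicate 3, where bHLH054 and bHLH055 had 42 and 50 counts. Among the lower 7, CTB3-cr1 replicate 1 came second except for bHLH007, where CTB3-cr1 replicate 2 did.

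Some members lie at similar positions on chromosomes 11 and 12, which share a duplicated end, and were read as pairs. Their sequences were not compared, and the sources used here do not say how reads matching both genes of a pair were counted. bHLH151 (Os11g0158500) averaged 119 ± 12.7 CPM in CTB3-cr1 and 101 ± 12.2 CPM in Nipponbare. bHLH150 (Os12g0160400) averaged 102 ± 15.9 and 101 ± 1.12 CPM, so the pair had about equal counts. In contrast bHLH160 on chromosome 11 had 16 to 44 counts per library, while bHLH161 on chromosome 12 had 8 counts in all, 6 of them in Nipponbare replicate 3. The table gave some numbers to a pair of loci. For bHLH061 on chromosome 11, Os11g0601700 had 489 to 826 counts per library and Os11g0601650 had 0, while both loci of bHLH116 on chromosome 12 had 0.

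Among the 6 genes left out by the rule, EAT1 (Os04g0599300), a tapetal bHLH factor, had a log2 fold change of -1.52 ± 0.35, with an adjusted p of 0.492 in edgeR and 0.00252 in the authors' deposited table. Nipponbare replicate 2 was again highest, at 177 CPM against 77.7 and 71.3 CPM in the other Nipponbare libraries. Without it the log2 fold change was -0.97, with an unadjusted p of 0.000227 in edgeR, against 0.00283 with all libraries. The adjusted p without it was 0.159 in edgeR. The other 5 had log2 fold changes from -0.21 to 0.52. Whether EAT1 differed from the members was not tested.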

How the data were processed

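Raw counts of each gene in each library were deposited, per the file headers. It also gives FPKM per library, made by the authors. The authors also deposited a normalised signal per genotype. The deposited log2 fold changes and the deposited p-values are theirs as well. Per the submitters' processing notes, fastp 0.19.7, HISAT2 and DESeq2 were used. Build, annotation, counter and strand setting: not given in the sources used here. Near-identical copies, overlapping and antisense genes are therefore uncertain.

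A broken entry leaves 2 of 39369 lines without a gene identifier. They were left out and held at most 0.000478% of a library's counts. Groups came from the sample titles. All 6 libraries were fitted with edgeR 4.0.16 in R 4.3.3 (filterByExpr, TMM, estimateDisp, quasi-likelihood F test), and p-values were adjusted by Benjamini-Hochberg over all 25636 genes tested, with calls below 0.05. Scripts were tested on simulated data. CPM uses TMM-scaled library sizes. Approximate SEs were taken from each estimate and its F value, and 95% intervals rest on them.

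Named members are those past a threshold in edgeR or the authors' table, the 6 with the lowest p in each direction, the 8 with the highest CPM, up to 4 tested members of each role list, and members below the filter with at least 20 counts and no overlap. Role lists (iron, jasmonate, phytochrome-interacting, brassinosteroid and organ size, stomata, branching, pigment, root hair, phosphate) came from identifiers or words. The members, lists and rule were chosen with earlier results of these data known. Any further member that is named was picked with its values known.

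Alternatives were DESeq2 1.42.0, limma-voom (limma 3.58.1), scaling by RLE or by library size alone, testing without a filter or with one of 5 CPM in 3 libraries, blocking on the replicate number, limma on log2(FPKM + 1) and log2(FPKM + 0.1) for genes above an FPKM of 1 in 3 libraries, log2(FPKM + 1) without a filter, and each library left out in turn.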

Additional observations from a re-analysis of the deposited data

How the results depend on the processing

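The count of called members was 0 under all 16 alternatives. Their median log2 fold change ran from -0.029 without CTB3-cr1 replicate 2 to 0.033 with library size alone, a scaling that moved the median of all genes to 0.032. The members with an unadjusted p under 0.05 in edgeR were 7 of 121 with all libraries. They were 2 of 125 without Nipponbare replicate 2 and 12 of 126 without CTB3-cr1 replicate 2. The shares of all genes in these leave-out fits are not given here, so the counts do not set the members apart from other genes. Of 538 log2 fold changes of the 35 tested named members, 520 kept their direction, and 24 members kept it throughout. The other 11 turned, mostly at estimates near 0. bHLH090 was -0.00057 with the filter of 5 CPM. Leaving out each library in turn gave -0.077 to 0.14 for bHLH090, -0.19 to 0.16 for bHLH138, -0.12 to 0.018 for bHLH155, -0.033 to 0.059 for bHLH060, -0.016 to 0.24 for ILI5, -1.55 to 0.11 for bHLH148, -0.031 to 0.51 for PIL15, -0.10 to 0.12 for PIL16, -0.50 to 0.018 for IBH1, -0.049 to 0.37 for BU1 and -0.048 to 0.50 for bHLH124. The cause was not tested.

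Deviations of same-numbered libraries had correlations of -0.27, 0.37 and -0.07 for replicates 1, 2 and 3. CTB3-cr1 replicates 1, 2 and 3 correlated best with Nipponbare replicates 3, 2 and 1, so that only replicate 2 matched by number. With a replicate block, 0 members were called, their median was 0.0022, and 4 genes of the whole table were called instead of 20. With 3 libraries per genotype and totals of 14422565 to 16982031 counts, no member below the filter entered the reported test, though 156 members were tested without a filter, and for 40 tested members a 2-fold change was inside the interval.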
